A study of Mus musculus with 10 samples.

Results

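NF-kappaB is a family of dimeric transcription factors that inhibitor proteins, the IkappaBs, hold inactive in the cytoplasm. Receptors for TNF, for interleukin-1 and for microbial products recruit adaptors and ubiquitin ligases, which activate kinases that lead to destruction of the IkappaBs. The freed dimers switch on inflammatory genes and also genes that shut the pathway down again, among them IkappaBs and the ubiquitin-editing protein A20. In the kidney the pathway is known from tubule cells, fibroblasts and infiltrating leukocytes alike, and it is active in inflammation and injury. The genes described here are 39 NF-kappaB pathway components and feedback targets, chosen by name but with earlier results of these data known. The same holds for the other gene lists used below, so their counts are a description and not independent of the data. Of these, 32 had array rows annotated to that gene alone and were used, out of 30063 genes measured. Irak1 shared its row with microRNA genes and was left out, and Nfkb1, Chuk, Ripk1, Ripk2, Traf3 and Irak4 were not analysed here. The 32 comprised 12 feedback targets, which NF-kappaB is known to induce, and 20 components of the signalling chain.

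Whole kidneys of 5-week-old mice were compared, 5 with tubule-specific loss of Lkb1 and 5 controls, each on its own array. The kinase Lkb1 is the product of Stk11. Knockouts (Lkb1Δtub) carried the Lkb1flox allele (Stk11tm1.1Sjm/J) together with the KspCre transgene, B6.Cg-Tg(Cdh16-cre)91lgr/J, in which the promoter of the tubule cadherin gene Cdh16 drives Cre. Controls were Cre-negative littermates, either Lkb1flox/+ or Lkb1flox/flox, so all 10 mice carried a floxed allele and the presence of Cre cannot be told apart from loss of Lkb1. The strain label reads C57Bl/6N, although the floxed line is described elsewhere in the labels as of mixed background. The titles of the knockouts carry KD and the series design names cultured dog cells (MDCK). The growth and extraction protocols describe knockout mice and are followed here. The tubule marker Lrp2, the proximal tubule receptor megalin, was bright. It averaged 12.57 ± 0.06 in knockouts and 12.78 ± 0.05 in controls on the log2 scale (SD, n = 5 each). All knockouts lay below all controls for Lrp2, and it was called lower (adjusted p = 0.0118 in the limma fit described below).

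Values are log2 expression values made by RMA, a method that corrects background, scales arrays to one another and summarises the probes of a transcript. One log2 unit is a doubling. A difference is knockout minus control, its error (SE) comes from a limma fit over all genes, and a gene is called higher or lower at a Benjamini-Hochberg adjusted p under 0.05. Stk11 itself measured 9.12, 9.21, 9.07, 9.21 and 9.31 in knockouts 1 to 5, against 9.43, 9.40, 9.48, 9.46 and 9.40 in controls 1 to 5. All 5 knockouts lay below all 5 controls (log2 difference -0.25, SE 0.05, adjusted p = 0.00746, two-sided exact permutation p = 0.00794, the smallest that 5 against 5 allows). In whole kidney, fewer cells of a type and less RNA per cell cannot be told apart.

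Short upstream sequences are shown for members whose promoter matches a letter pattern modelled on the kappaB site, the DNA element that NF-kappaB is known to bind. The search used GGG, then any 2 bases, then TTTCC on both strands, called the stringent pattern here beside a looser one. It is a simplified form of the kappaB site, so it can miss other forms and can match sequences that are not sites. RefSeq promoter windows of 300 bases were searched (250 before the annotated start and 50 after it, build GRCm38.p6, the same assembly as mm10). A gene has a window for each listed start, and 6 of the 28 measured members with a window had several. The pattern matched in at least 1 window in 6 of the 28 (21.4%) and in 512 of all 27025 genes with a window (1.89%). A looser pattern, GGG, then any 5 bases, then CC, which also takes in every stringent match, matched in 22 of the 28 (78.6%) and in 53.5% of all genes. The 5 genes first printed carry the stringent pattern upstream of the start, in capitals, on either strand. Nfkb2, Rel and Tnfaip3 were higher in knockouts, while Nfkbia and Map3k7 did not pass. Birc3, the member with the largest rise, had no stringent match and is shown with its looser match in capitals. Sequences run 5′ to 3′ on the strand of the gene.
Nfkb2: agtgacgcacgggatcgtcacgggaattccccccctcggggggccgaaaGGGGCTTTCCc
Rel: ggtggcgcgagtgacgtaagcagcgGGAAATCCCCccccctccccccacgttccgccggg
Tnfaip3: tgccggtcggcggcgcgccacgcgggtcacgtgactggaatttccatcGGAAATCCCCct
Nfkbia: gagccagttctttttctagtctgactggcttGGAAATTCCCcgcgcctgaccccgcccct
Map3k7: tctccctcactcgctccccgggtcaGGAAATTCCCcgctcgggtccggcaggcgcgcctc
Birc3: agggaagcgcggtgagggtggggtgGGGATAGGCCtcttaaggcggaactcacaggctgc
These stretches lie at chr19:46304677-46304736 on the plus strand (Nfkb2, bases -60 to -1 from the start), chr11:23771026-23771085 on the minus strand (Rel, -116 to -57) and chr10:19015411-19015470 on the minus strand (Tnfaip3, -60 to -1). Those of the other genes are chr12:55492648-55492707 on the minus strand (Nfkbia, -60 to -1), chr4:31963990-31964049 on the plus strand (Map3k7, -117 to -58) and chr9:7873193-7873252 on the minus strand (Birc3, -82 to -23). The capitals begin 11 bases before the start in Nfkb2, 91 in Rel, 12 in Tnfaip3, 29 in Nfkbia, 92 in Map3k7 and 57 in Birc3. The start is that of the printed window, which need not be the outermost start of the gene. It coincides with the annotated 5′ end of the gene in Rel, Tnfaip3 and Nfkbia, and lies 3743 bases inside the annotated gene in Nfkb2, 615 in Map3k7 and 35 in Birc3. Nfkb2 has 3 windows, each with 1 stringent match, at -11, 11 and -225 from their own starts, and the first was chosen for printing. The stringent pattern was found in 3 of the 11 higher members with a window (27.3%) and in 3 of the 17 others (17.6%), the third of these being Traf2, where it lies after the start. A match describes the letters of the window and is no evidence of binding.

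Of the 32 members, 12 were higher in knockouts, 1 was lower and 19 did not pass. The higher members amount to 37.5%, where 5.37% of all genes were called higher. The lower one, Sod2, is 3.13% of the members, where 2.67% of all genes were called lower. Rises were of modest size, from 1.14-fold for Ikbke to 1.60-fold for Birc3. The 5 knockouts all lay beyond the 5 controls for 14 members (43.8%), 12 above and 2 below, while this held for 8.58% of all genes, 5.08% above and 3.51% below. At an unadjusted p under 0.05 stood 17 members and 23% of all genes. Of all calls among the 30063 genes, 66.8% were increases, and 55.5% were after quantile normalisation. The median log2 difference was 0.11 over the members and -0.03 over all genes.

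**Figure D1:**
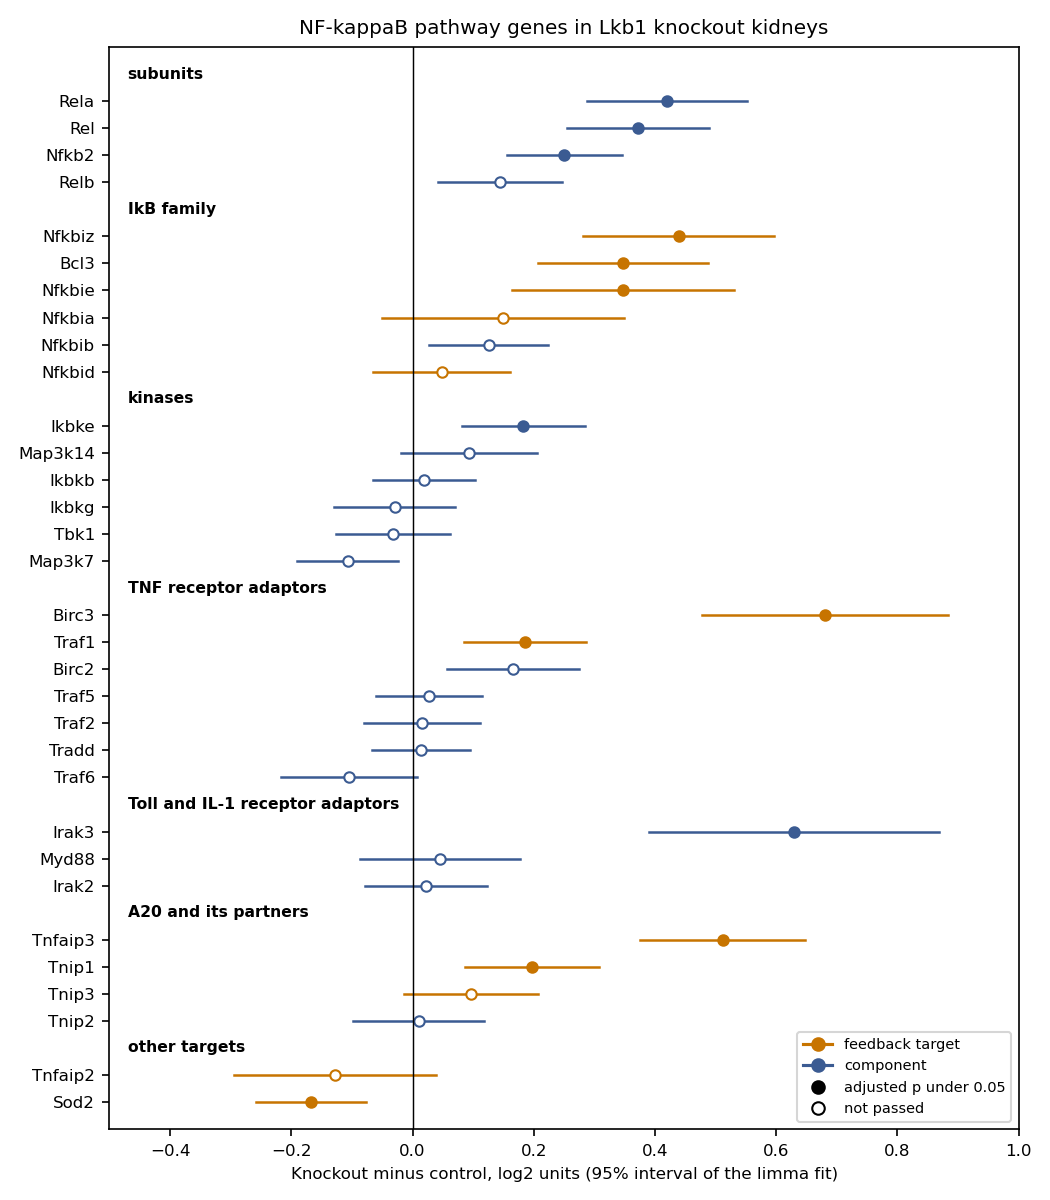
Log2 difference, knockout minus control (x axis), with the 95% interval of the limma fit for each of the 32 measured members (y axis), grouped by role and coloured by class. Filled points passed at an adjusted p under 0.05; 12 lie right of 0 and Sod2 lies left of it.

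Of 4 measured DNA-binding subunits, 3 were higher and the fourth, Relb, did not pass. Rela encodes p65, the main activating subunit of the canonical pathway, and lies on chromosome 19 at 5637442 to 5648134. It measured 9.79, 9.95, 9.93, 9.77 and 9.84 in knockouts 1 to 5, against 9.23, 9.47, 9.45, 9.53 and 9.50 in controls 1 to 5. The groups did not overlap (log2 difference 0.42, SE 0.06, adjusted p = 0.00162, 1.34-fold). Control 1 was lower than the other controls, which sat close together.

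Rel encodes c-Rel, a subunit best known from lymphoid and myeloid cells. It measured 7.23, 7.05, 7.27, 7.07 and 7.16 in knockouts 1 to 5, against 6.77, 6.72, 6.80, 6.73 and 6.89 in controls 1 to 5. Again every knockout exceeded every control (log2 difference 0.37, SE 0.05, adjusted p = 0.00161, 1.29-fold). Nfkb2, which encodes the p100 precursor of p52 in the non-canonical pathway, measured 7.41, 7.34, 7.38, 7.30 and 7.29 in knockouts 1 to 5, against 7.17, 7.01, 7.13, 7.06 and 7.10 in controls 1 to 5. The groups did not overlap, and the SD was 0.05 in knockouts and 0.06 in controls (log2 difference 0.25, SE 0.04, adjusted p = 0.00458, 1.19-fold). Relb, the usual partner of p52, measured 6.90, 6.80, 6.92, 6.77 and 6.84 in knockouts 1 to 5, against 6.73, 6.60, 6.78, 6.70 and 6.70 in controls 1 to 5. Its groups overlapped, with control 3 inside the knockout range, and it did not pass (log2 difference 0.14, SE 0.05, adjusted p = 0.0849). Rel, Relb and Nfkb2 are themselves known NF-kappaB targets, whereas Rela is not usually counted as one.

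Of the 6 IkappaB family genes, 3 were higher, 0 lower and 3 did not pass, and the split fell within the family. Nfkbiz encodes IkappaB-zeta, an atypical nuclear member that acts on a subset of NF-kappaB target genes. It measured 7.40, 7.46, 7.52, 7.23 and 7.12 in knockouts 1 to 5, against 6.90, 6.80, 6.94, 6.98 and 6.92 in controls 1 to 5. All knockouts lay above all controls, with knockouts 4 and 5 the lowest of theirs (log2 difference 0.44, SE 0.07, adjusted p = 0.00355, 1.36-fold). Bcl3, a nuclear member that binds p50 and p52 dimers, measured 7.19, 7.11, 7.23, 7.07 and 7.04 in knockouts 1 to 5, against 6.96, 6.67, 6.86, 6.65 and 6.76 in controls 1 to 5. The groups again did not overlap (log2 difference 0.35, SE 0.06, adjusted p = 0.00642, 1.27-fold).

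Nfkbie encodes IkappaB-epsilon, a cytoplasmic inhibitor and delayed feedback target. It measured 6.90, 6.84, 6.91, 6.65 and 6.64 in knockouts 1 to 5, against 6.50, 6.17, 6.59, 6.39 and 6.55 in controls 1 to 5. The groups were separated by a narrow margin, and control 2 was low (log2 difference 0.35, SE 0.08, adjusted p = 0.0248, 1.27-fold). Without control 4 or without knockout 1, 2 or 3 it no longer passed (adjusted p = 0.0560 to 0.0669).

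Nfkbia, the gene of IkappaB-alpha and the classic rapid feedback target, measured 9.43, 9.63, 9.84, 9.61 and 9.56 in knockouts 1 to 5, against 9.44, 9.75, 9.54, 9.31 and 9.28 in controls 1 to 5. The ranges of the groups overlapped, control 2 being higher than 4 of the 5 knockouts, and the difference did not pass (log2 difference 0.15, 95% interval -0.05 to 0.35, adjusted p = 0.355). Its SD was 0.15 in knockouts and 0.19 in controls. Nfkbib, the gene of IkappaB-beta, averaged 8.59 ± 0.07 in knockouts and 8.46 ± 0.06 in controls and did not pass (adjusted p = 0.113, n = 5 each). Nfkbid, a nuclear member induced through Toll-like receptors, averaged 6.13 ± 0.09 in knockouts and 6.09 ± 0.05 in controls (adjusted p = 0.613).

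**Figure D2:**
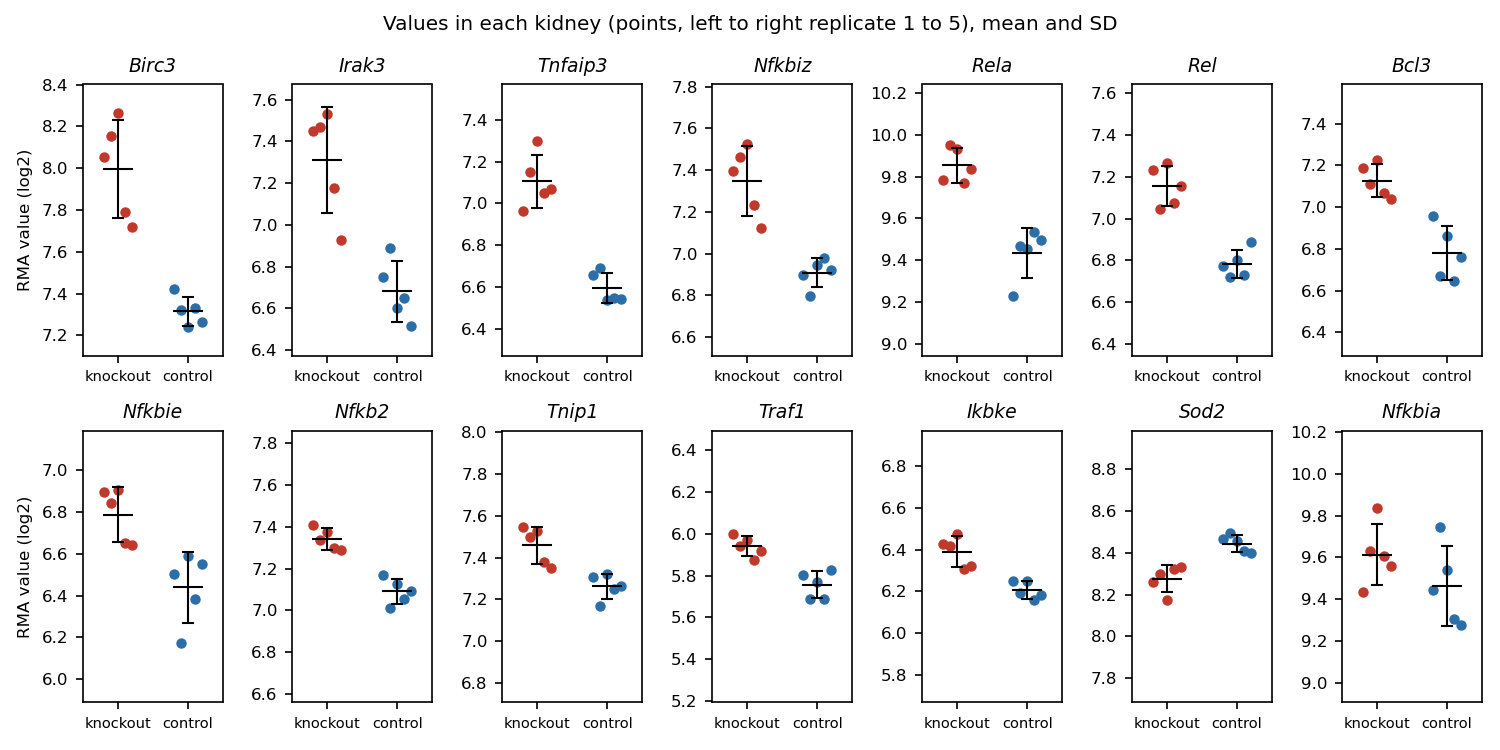
RMA values (log2, y axis) of the 13 members that passed and of Nfkbia in each kidney, with knockouts left of controls; bars are the mean and SD of 5 kidneys, and every panel spans the same number of log2 units. The groups overlap for Nfkbia alone among these, and Sod2 is the one member that is lower in knockouts.

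Among the kinases, 1 of 6 was higher and it was not part of the core IKK complex. Ikbke, an inducible relative of the IKKs that phosphorylates interferon regulatory factors, measured 6.43, 6.42, 6.48, 6.31 and 6.32 in knockouts 1 to 5, against 6.25, 6.19, 6.25, 6.16 and 6.18 in controls 1 to 5. The groups did not overlap, and the step was the smallest among the higher members (log2 difference 0.18, SE 0.05, adjusted p = 0.0312, 1.14-fold). It did not pass without control 2, 4 or 5 or without knockout 1, 2 or 3 (adjusted p = 0.0535 to 0.0806).

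Ikbkb and Ikbkg, the measured genes of the core IKK complex, differed little, and Chuk was not analysed here. Ikbkb, the catalytic subunit that phosphorylates IkappaBs, averaged 8.36 ± 0.06 in knockouts and 8.35 ± 0.03 in controls (log2 difference 0.02, 95% interval -0.07 to 0.10). For Ikbkg, the regulatory subunit NEMO, the difference was -0.03 (interval -0.13 to 0.07), and for Tbk1, the close relative of Ikbke, it was -0.03 (interval -0.13 to 0.06). Map3k14, the kinase NIK that starts the non-canonical pathway, did not pass (log2 difference 0.09, adjusted p = 0.302).

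Map3k7, the kinase TAK1 that activates the IKK complex, measured 8.96, 8.98, 8.90, 8.96 and 9.0 in knockouts 1 to 5, against 9.01, 9.13, 9.08, 9.09 and 9.02 in controls 1 to 5. All 5 knockouts lay just below all 5 controls, yet the difference did not pass (log2 difference -0.11, adjusted p = 0.113). After quantile normalisation it was called lower (log2 difference -0.13, adjusted p = 0.0285).

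Of 7 measured adaptors and ligases that act at TNF receptors, 2 were higher and both are feedback targets. Birc3 encodes the ubiquitin ligase cIAP2 and had the largest difference of all members. It measured 8.05, 8.15, 8.26, 7.79 and 7.72 in knockouts 1 to 5, against 7.42, 7.32, 7.24, 7.33 and 7.27 in controls 1 to 5. The lowest knockout stood well above the highest control, and knockouts 4 and 5 were clearly below the other 3 (log2 difference 0.68, SE 0.09, adjusted p = 0.00120, 1.60-fold, 95% interval 1.39 to 1.84). Traf1, an adaptor that binds TRAF2 and the cIAPs, measured 6.00, 5.94, 5.97, 5.88 and 5.92 in knockouts 1 to 5, against 5.80, 5.69, 5.77, 5.69 and 5.83 in controls 1 to 5. The groups did not overlap (log2 difference 0.19, SE 0.05, adjusted p = 0.0285, 1.14-fold). Its signal was dim, with a control mean above 63.1% of the negative control probe sets, so the size of the change is uncertain. Traf1 did not pass without control 2, 3 or 4 or without knockout 1, 2 or 3 (adjusted p = 0.0539 to 0.0725).

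Birc2, the gene of the related ligase cIAP1, lies beside Birc3 on chromosome 9 (7818226 to 7837131 for Birc2 and 7847468 to 7873205 for Birc3). It is the mean of 2 rows, one of them annotated with a synonym. Birc2 measured 8.20, 8.15, 8.18, 8.04 and 7.99 in knockouts 1 to 5, against 7.97, 8.01, 7.89, 7.98 and 7.89 in controls 1 to 5. It did not pass (log2 difference 0.17, SE 0.05, adjusted p = 0.0635), but was called higher when dim genes were left out (adjusted p = 0.0463), with array weights (0.0327) and without knockout 5 (0.0184). The other receptor adaptors showed no change that passed. Traf2 and Traf5, ubiquitin ligase adaptors of TNF family receptors, differed by 0.02 and 0.03. Tradd, the death domain adaptor of TNF receptor 1, differed by 0.01 (95% interval -0.07 to 0.09). Traf6, the ligase downstream of interleukin-1 and Toll-like receptors, differed by -0.10 (interval -0.22 to 0.01, adjusted p = 0.250).

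At the Toll-like and interleukin-1 receptors, 1 of 3 measured genes was higher, and it encodes a brake. Irak3 encodes IRAK-M, a member of the IRAK family that limits Toll-like receptor signalling and is known mainly from monocytes and macrophages. It measured 7.45, 7.47, 7.53, 7.18 and 6.93 in knockouts 1 to 5, against 6.75, 6.89, 6.60, 6.65 and 6.52 in controls 1 to 5. Knockout 5 stood closest to the controls, only just above control 2, and the groups did not overlap (log2 difference 0.63, SE 0.11, adjusted p = 0.00458, 1.55-fold). Myd88, the shared adaptor of these receptors, averaged 7.64 ± 0.06 in knockouts and 7.60 ± 0.13 in controls (log2 difference 0.05, 95% interval -0.09 to 0.18). Irak2, a signalling kinase of the same complex, differed by 0.02 (interval -0.08 to 0.12).

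Of A20 and its partners, 2 of 4 were higher. Tnfaip3 encodes A20, which edits ubiquitin chains on adaptors and dampens the pathway. It measured 6.97, 7.15, 7.30, 7.05 and 7.07 in knockouts 1 to 5, against 6.66, 6.69, 6.54, 6.55 and 6.54 in controls 1 to 5. Its knockouts lay above all controls with a gap wider than the range of the controls, and it had the smallest adjusted p among the members (log2 difference 0.51, SE 0.06, adjusted p = 0.000612, 1.43-fold). Tnip1, the A20-binding protein ABIN1, measured 7.54, 7.5, 7.53, 7.38 and 7.35 in knockouts 1 to 5, against 7.31, 7.17, 7.32, 7.25 and 7.27 in controls 1 to 5. The margin between the groups was narrow (log2 difference 0.20, SE 0.05, adjusted p = 0.0333, 1.15-fold), and the call was lost without control 2, 4 or 5 or without knockout 1, 2 or 3 (adjusted p = 0.0633 to 0.0849).

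The 2 remaining A20 partners did not pass. Tnip2 (ABIN2), a stabiliser of the kinase Tpl2, averaged 6.57 ± 0.09 in knockouts and 6.56 ± 0.05 in controls. Tnip3 (ABIN3), which is induced by lipopolysaccharide, averaged 3.92 ± 0.07 in knockouts and 3.82 ± 0.08 in controls. The Tnip3 means exceeded only 21.6% and 19.7% of the negative control probe sets in knockouts and controls, so no level above background was measured in either group.

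The 2 targets outside the signalling chain did not rise. Sod2, the mitochondrial superoxide dismutase and a well-known NF-kappaB target, measured 8.26, 8.30, 8.17, 8.32 and 8.33 in knockouts 1 to 5, against 8.46, 8.49, 8.46, 8.41 and 8.40 in controls 1 to 5. All knockouts lay below all controls (log2 difference -0.17, SE 0.04, adjusted p = 0.0275), and the ratio of controls to knockouts was 1.12. The call did not hold with arrays centred on their medians (adjusted p = 0.0977), or without control 1, 2 or 3 or knockout 1, 2 or 3 (0.0571 to 0.0655). Tnfaip2, a TNF-induced gene of epithelial and myeloid cells, measured 8.49, 8.45, 8.31, 8.28 and 8.16 in knockouts 1 to 5, against 8.57, 8.52, 8.47, 8.55 and 8.22 in controls 1 to 5. The groups overlapped and it did not pass (log2 difference -0.13, SE 0.08, adjusted p = 0.346).

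Feedback targets and components were then set side by side. Of the 12 feedback targets, 7 (58.3%) were higher and 1 was lower, with a median log2 difference of 0.19. Of the 20 components, 5 (25%) were higher and 0 lower, with a median of 0.04. The share of all genes called higher was 5.37%, and their median difference was -0.03. The 5 higher components were Rela, Rel, Nfkb2, Ikbke and Irak3. With Rel, Relb and Nfkb2 counted as targets, 9 of 15 targets (60%) and 3 of 17 components (17.6%) were higher. The count of higher targets was 4 without control 4 or without knockout 1, 2 or 3. The medians are a description of these lists, and the difference between the classes was not tested. The 4 feedback targets that did not pass were Nfkbia, Nfkbid, Tnip3 and Tnfaip2.

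Genes elsewhere in the pathway were counted in the same way. Of 31 other measured signalling genes, such as the deubiquitinases Cyld and Otulin, the linear ubiquitin ligase subunits and the TAB adaptors, 2 (6.45%) were higher and 0 lower, close to the 5.37% of all genes. Map3k8, the kinase Tpl2, measured 7.0, 7.23, 7.16, 7.09 and 6.79 in knockouts 1 to 5, against 6.73, 6.77, 6.68, 6.75 and 6.61 in controls 1 to 5. The groups did not overlap (log2 difference 0.35, SE 0.07, adjusted p = 0.0137, 1.27-fold). The other call was Ticam2, a Toll-like receptor adaptor, at the edge of the threshold (log2 difference 0.28, adjusted p = 0.04995). Its means exceeded 44.7% and 37.7% of negative control probe sets in knockouts and controls, so it has no fold here. The count of higher genes in this list was 1 without control 1, 3 or 4 or without knockout 1, 2, 3 or 5.

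Of 26 measured effector targets, the inflammatory genes that NF-kappaB is known to induce, 10 (38.5%) were higher, 1 was lower and 15 did not pass. Their median log2 difference was 0.14, and 5.37% of all genes were called higher. Those that did not pass included Tnf, Il6 and Il1b, named after their values were seen (adjusted p = 0.256, 0.394 and 0.93 in the limma fit). The Il6 means exceeded only 9.33% and 10.9% of negative control probe sets in knockouts and controls. Lcn2, a secreted iron carrier and tubular injury marker, measured 9.06, 8.86, 8.85, 8.5 and 8.16 in knockouts 1 to 5, against 6.64, 6.58, 6.71, 6.44 and 6.36 in controls 1 to 5, a 4.40-fold rise (adjusted p = 1.12e-05). Vcam1, an adhesion molecule for leukocytes, measured 9.13, 9.12, 9.39, 8.69 and 8.28 in knockouts 1 to 5, against 7.29, 7.49, 6.98, 6.85 and 7.0 in controls 1 to 5, a 3.48-fold rise (adjusted p = 0.000238). Both differences were larger than that of any member. Ccl5, a chemokine, rose 1.62-fold (adjusted p = 0.00464), and Tnfrsf1b, the gene of TNF receptor 2, rose 1.53-fold (adjusted p = 0.00123). The lower one, named after its value was seen, was Plau, the urokinase gene (log2 difference -0.26, adjusted p = 0.0211), and 0 genes of the list were lower without control 3 or without knockout 1 or 3.

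**Figure D3:**
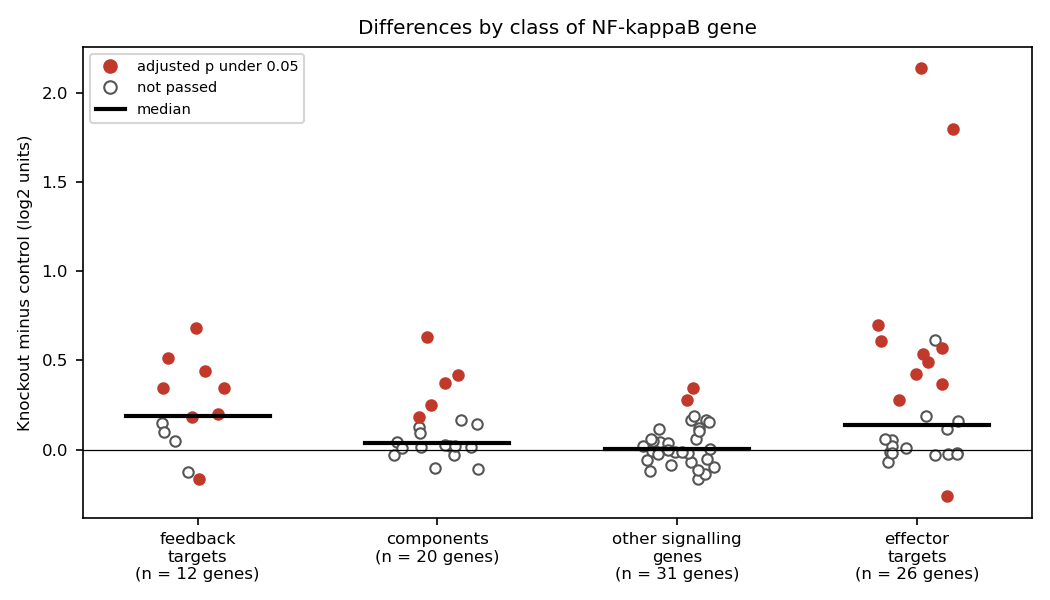
Log2 difference, knockout minus control (y axis), of each measured gene in 4 classes (x axis): feedback targets, components, other signalling genes and effector targets. Red points passed at an adjusted p under 0.05, bars are medians, and the medians are 0.19, 0.04, 0.00 and 0.14.

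Macrophage and fibroblast markers were also higher in knockouts. All 17 macrophage markers were higher in knockouts, and their summed linear level was 3132 to 5642 in knockouts and 1901 to 2302 in controls. The control mean of one of them, Ms4a7, lay below the median negative control probe set. All 8 measured fibroblast markers were higher as well, with summed levels of 3959 to 6740 in knockouts and 2008 to 2572 in controls. Here the control mean of Lum lay below that median. Within the knockouts, kidney 5 had the lowest value for 14 of the 17 macrophage markers and kidney 4 for the other 3. Kidney 5 was also the lowest knockout for 7 of the 12 higher members and kidney 4 for 3, the exceptions being Rel and Tnfaip3. Differences of kidney 5 from the controls were not small in these lists alone. It had the highest Stk11 of the knockouts (9.31). Without it, 1947 of all genes were called higher and 1473 lower, against 1614 and 803 with all kidneys. The part of macrophages and fibroblasts in the NF-kappaB differences was not tested.

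The median deviation from the control mean was also taken for each list per kidney. For the feedback targets it was 0.26, 0.21, 0.32, 0.13 and 0.13 log2 units in knockouts 1 to 5, against 0.05, -0.04, 0.03, -0.03 and -0.02 in controls 1 to 5. For the macrophage markers it was 1.19, 1.05, 1.15, 0.76 and 0.55 in knockouts 1 to 5, against 0.14, -0.02, 0.01, -0.12 and -0.01 in controls 1 to 5. In both lists knockouts 4 and 5 were the lowest knockouts, yet above every control. For the components the deviation was 0.04, 0.08, 0.05, 0.06 and 0.08 in knockouts 1 to 5, with kidney 5 level with kidney 2 at the top. In controls 1 to 5 it was 0.02, -0.02, 0.02, -0.01 and -0.001, so here too every knockout lay above every control. This median is taken over 20 components, of which 15 did not pass. Among the higher components, kidney 4 or 5 was the lowest knockout for Nfkb2, Rela, Ikbke and Irak3, but not for Rel.

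**Figure D4:**
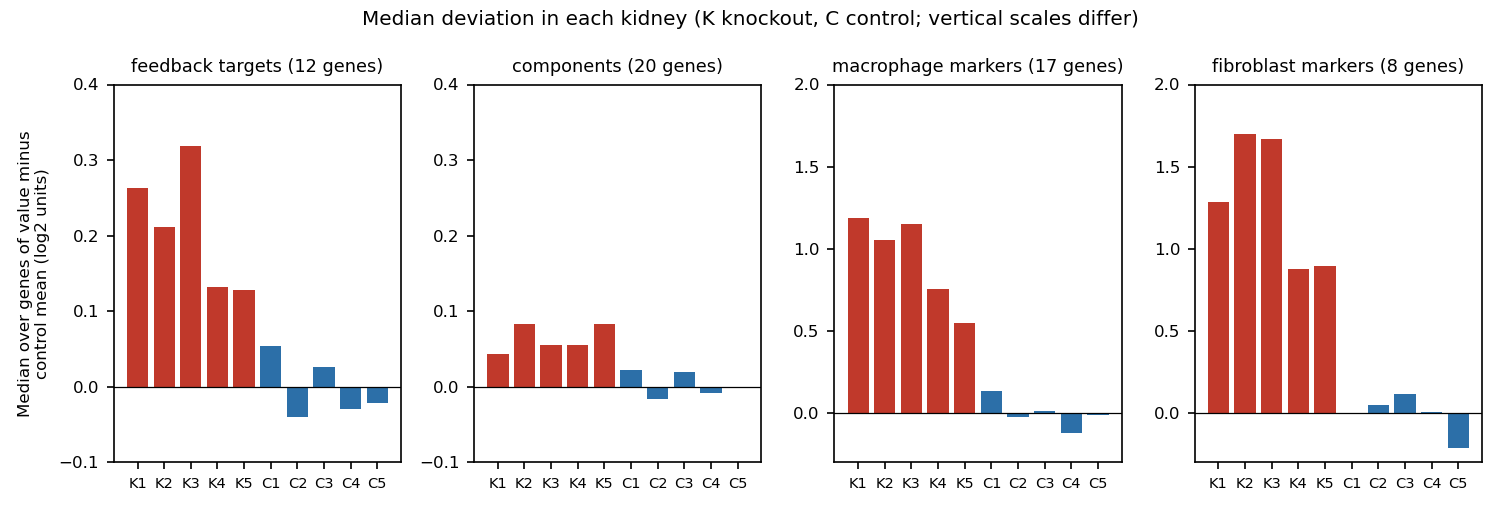
Median over the genes of a list of the value minus the control mean (log2 units, y axis) in each kidney (x axis, K1 to K5 knockouts, C1 to C5 controls). Knockouts 4 and 5 are the lowest knockouts for feedback targets (0.13 each), macrophage markers (0.76 and 0.55) and fibroblast markers (0.88 and 0.89), but not for components; the left pair and the right pair of panels have different scales.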

How the data were processed

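The authors deposited log2 expression values made with RMA from whole-kidney RNA on Affymetrix arrays, with build mm10, per the submitters' processing notes; the RMA software and its settings are not stated there. Background correction and scaling by RMA can compress small differences between dim genes. The table held 72688 rows for 10 arrays. Rows annotated to 1 gene symbol (30604) were kept, 2146 with several and 39938 with none were left out, 1135 symbols were updated through Entrez or unique RefSeq synonyms, and rows of a gene were averaged, giving 30063 genes. Groups follow the titles and conditions in the labels. Knockouts were compared with controls in limma 3.58.1 (R 4.3.3; lmFit, eBayes with trend, no covariate, no dim-gene filter), with Benjamini-Hochberg adjustment over all genes and a threshold of 0.05; Python 3.11.15 did the rest. The fit was tested on simulated data. P-values reflect the spread between 5 kidneys per group, and the number of arrays limits precision. Arrays correlated at 0.992 to 0.998, and 5222 negative control probe sets gave the background. The members and gene lists were chosen with earlier results of these data known. All members that passed are given by kidney, others where a role group needs them, and from each pathway list up to 4 called genes with the largest difference. Alternatives were another normalisation, a dim-gene filter, the brightest row, no trend, array weights, the replicate block, other class membership and each kidney left out. Sequences are from RefSeq, build GRCm38.p6.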

Additional observations from a re-analysis of the deposited data

Results flagged for a closer look

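In 76 groups of 5 kidneys (the 2 groups for each of 38 genes), 4 groups held a kidney far from the others by Dixon's test (critical value 0.71), and chance gives about 1 in 20. Ikbkg had its highest knockout, kidney 5, at 7.66, with the nearest at 7.49. Rela had its lowest control, kidney 1, at 9.23, with the nearest at 9.45. Tbk1 had its highest control, kidney 2, at 9.05, with the nearest at 8.91. Tnfaip2 had its lowest control, kidney 5, at 8.22, with the nearest at 8.47.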

How the results depend on the processing

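Of the 13 members that passed, 8 (Nfkb2, Rel, Rela, Nfkbiz, Bcl3, Birc3, Irak3 and Tnfaip3) passed in the same direction under every alternative run, and no member reversed. Over 12 higher members, the count was 12 to 13 under the other settings and 8 to 13 with each kidney left out. The 1 lower member became 0 with arrays centred on the median and 2 after quantile normalisation, which also gave 1 lower component, Map3k7; the lower feedback target was lost (0) with median centring, and both counts were 0 to 1 with each kidney left out. Higher components numbered 3 with Rel, Relb and Nfkb2 counted as targets, and higher targets 4 to 7 with each kidney left out. Other signalling genes had 1 higher with dim genes left out, 1 with the brightest row, 1 lower with array weights, and 1 to 2 higher and 0 to 1 lower with each kidney left out. Lower effector targets were 0 to 1 then, and the component median was 0.0237 (without knockout 5) to 0.0635 (without control 1). Lower genes, 803 of all genes tested, were 1301 after quantile normalisation and 435 (without knockout 2) to 1473 (without knockout 5). The causes were not tested, and dim genes such as Traf1 and Tnip3 are limited by their closeness to background.

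The replicate numbers were not taken to pair the kidneys: deviations of same-numbered knockouts and controls correlated at 0.250, 0.313, 0.104, -0.079 and 0.194 for numbers 1 to 5, and 4 of 5 knockouts correlated best with their own number, a hint from the data only. With the replicate block, 12 members were higher and 0 lower (Sod2, adjusted p = 0.0514), 0 feedback targets were lower, and 1826 genes were higher and 955 lower among all genes.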

Other observations

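Markers of other cell types were summed in the same way, on the linear scale. T and NK cell markers were higher for 3 of 11, with sums of 527 to 662 in knockouts and 470 to 562 in controls, and Cd2, Klrd1 and Ncr1 lay below the median negative control probe set in both groups. None of 5 B cell markers passed (sums of 204 to 232 in knockouts and 205 to 236 in controls), nor did any of 8 neutrophil markers (271 to 298 in knockouts and 252 to 284 in controls). The B cell marker Ms4a1 and the neutrophil markers S100a8, Retnlg and Mmp8 lay below the median negative control probe set in both groups. S100a9 lay below it in controls. None of 6 endothelial and 4 podocyte markers passed. Thick ascending limb markers were lower for 3 of 4 and higher for 1 (sums of 12148 to 12885 in knockouts and 15510 to 16859 in controls), and intercalated cell markers were lower for 4 of 5 (1163 to 1665 in knockouts and 1927 to 2404 in controls). Principal cell markers were higher for 2 of 5 (5290 to 8349 in knockouts and 4161 to 5116 in controls). Proximal tubule markers were lower for 2 of 7, distal convoluted tubule markers lower for 3 of 4 and urothelial markers higher for 4 of 5, with overlapping sums in each.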
